A study of Mus musculus with 8 samples.

Results

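Wee1, a kinase that holds cells back from mitosis, and 8 genes of the same switch were followed in the left ventricle of mice with heart-specific overexpression of the microRNA miR-100. These were Wee1, Pkmyt1, Cdk1, Ccnb1, Cdc25a, Cdc25b, Cdc25c, Chek1 and Plk1, matched by the gene symbol of each array row. Of these 9 genes, 8 had a row among the 22206 rows of the table, each with a single row, and no row was annotated with Ccnb1. Wee1 was chosen from its measured difference between the groups in these same arrays, and the others were grouped with it by function. The differences between the groups are therefore given as a description of these 8 genes.

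The first group held 4 male mice with a Myh6-Cre transgene (B6.FVB-Tg(Myh6-Cre)2182/J) and 1 copy of a miR-100 flox allele (Cre positive miR100flox/+), called miR-100 here. The second group held 4 male mice labelled wildtype, called wild type here. All mice were 8 weeks old, untreated, and given as C57/BL6J, and each array held left ventricular RNA of 1 sample. The Myh6 promoter drives Cre in heart muscle cells. The labels name no Cre in the wild type mice, so an effect of Cre or of the transgene insertion and an effect of miR-100 cannot be told apart. No row of the table carries the symbol of miR-100 itself, so its overexpression was not checked. The labels do not say which mice shared a litter, and the tests measure the spread between these 8 samples only.

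Entry into mitosis is set by the cyclin-dependent kinase CDK1 bound to cyclin B. WEE1 and the related kinase PKMYT1 keep CDK1 inactive by phosphorylating residues in its ATP-binding loop, and the CDC25 phosphatases remove these phosphates. CHK1, the checkpoint kinase encoded by Chek1, restrains CDC25 when DNA is damaged or replication stalls, and PLK1 activates CDC25 and marks WEE1 for degradation. Most heart muscle cells of the adult mouse have left the cell cycle. In mouse liver, Wee1 is also known as a gene under circadian control.

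The microRNA named in the flox allele is shown with the mature mouse microRNAs that share its seed. Targets of this family are recognised through the seed, and Plk1 has been reported as a target. The sequences are from RefSeq (GRCm38.p6), and capitals mark the seed, bases 2 to 8 from the 5′ end.
mmu-miR-100-5p: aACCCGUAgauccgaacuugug
mmu-miR-99a-5p: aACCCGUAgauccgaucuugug
mmu-miR-99b-5p: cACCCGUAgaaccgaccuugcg
Of 1738 mature mouse microRNAs in that table, 3 carried this seed. The endogenous mouse miR-100-5p lies at chr9:41531437-41531458 on the plus strand, miR-99a-5p at chr16:77598940-77598961 on the plus strand and miR-99b-5p at chr17:17830194-17830215 on the plus strand. Counted from the 5′ end, miR-99a-5p differs from miR-100-5p by A16U, and miR-99b-5p by A1C, U11A, A16C and U21C. All of these changes lie outside the seed.

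Values are log2 signals, so that a difference of 1 is a doubling. The arrays resembled each other, with correlations of 0.988 to 0.993 between them and array medians of 5.70 to 5.74. Replicate 2 of each group stood apart on the first principal component. In the miR-100 group it lay at 30.8, against 8.96 to 13.5 on the other miR-100 arrays, and in the wild type group at -38.2, against -13.0 to -3.49 on the other wild type arrays. Without miR-100 replicate 2, which had the lowest Wee1 signal, the difference of Wee1 between the groups was -1.19 (limma adjusted p = 0.0288). Without wild type replicate 2 the Wee1 difference was -1.32 and did not pass 0.05 (limma adjusted p = 0.0533). Markers of ventricular muscle were bright on all arrays, with Myh6 at 19.13 ± 0.08 in miR-100 hearts and 19.17 ± 0.03 in wild type hearts (SD, n = 4 each). Probes differ in their response, so the levels of different genes are not ranked against each other. The percentile of a row's mean among all rows is given only to show which rows lay near the dim end of the array.

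Wee1 was lower in the miR-100 hearts. Its log2 signal was 9.37, 9.05, 9.90 and 9.56 in the 4 miR-100 hearts, against 10.86, 10.81, 10.55 and 10.97 in the 4 wild type hearts. Every miR-100 value lay below every wild type value, and the groups were separated by a gap of 0.65. The means were 9.47 ± 0.36 in miR-100 hearts and 10.80 ± 0.18 in wild type hearts (SD, n = 4 each). The difference was -1.33 (95% confidence interval -1.73 to -0.93), so the miR-100 signal was 0.398 of the wild type signal. Of 22206 rows, 39 had a larger difference in either direction, and in the order of all differences from the most negative Wee1 held place 12. RNA of whole tissue was measured, so fewer cells that express Wee1 and less Wee1 RNA per cell cannot be told apart.

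Of the 8 measured genes, Wee1 alone passed an adjusted p of 0.05 in the fit over the whole table, with 0 higher and 1 lower in miR-100 hearts (limma, Benjamini-Hochberg). Over all rows, 31 of 22206 passed, or 0.14%, and 10 of them, or 0.045%, were lower. Wee1 was also the only gene of the 8 whose groups did not overlap, which held for 4.54% of all rows. Nothing is read from these counts, since the fit that gave them also led to Wee1. Wee1 did not pass when miR-100 replicate 1 was left out (difference -1.29, limma adjusted p = 0.0565), nor when miR-100 replicate 4 was (-1.36, limma adjusted p = 0.0520) or wild type replicate 2 was (-1.32, limma adjusted p = 0.0533).

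**Figure D1:**
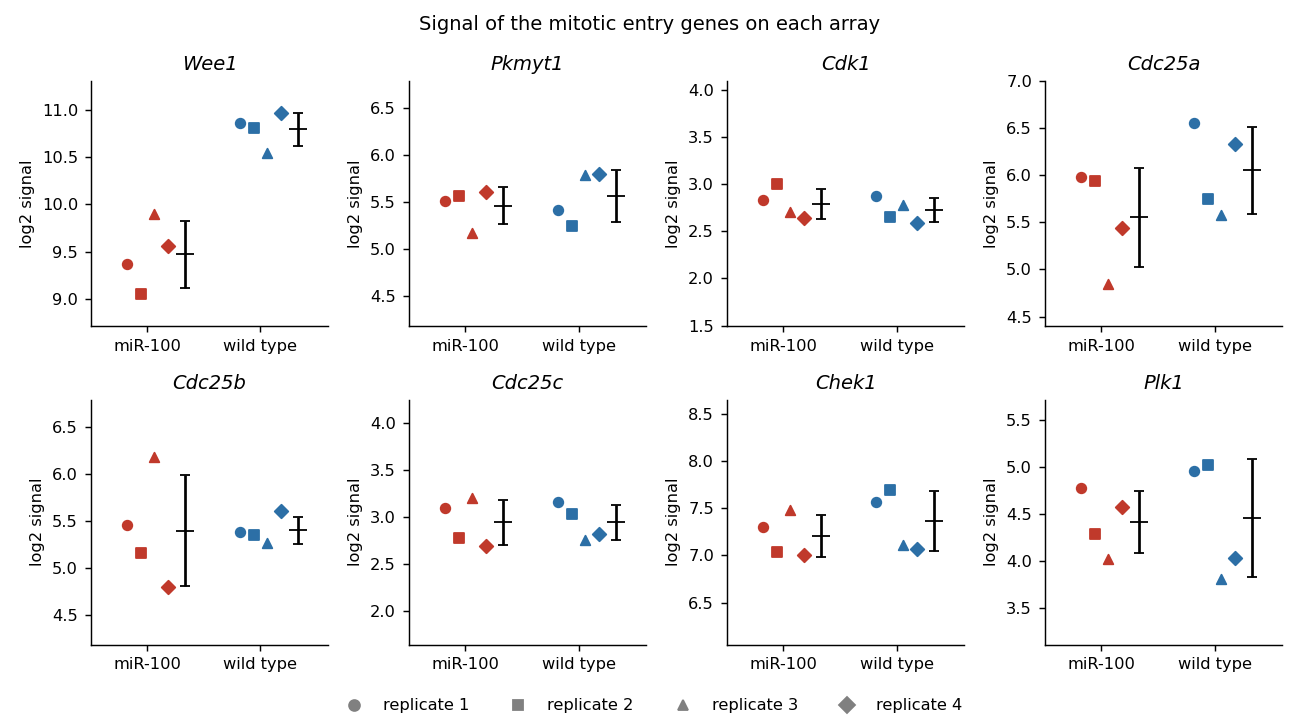
Log2 signal of each measured mitotic entry gene on each of the 8 arrays, with miR-100 hearts in red and wild type hearts in blue, marker shape giving the replicate number and black bars giving mean ± SD (n = 4). Each vertical axis spans the same range of log2 units; the Wee1 points of the miR-100 hearts, 9.05 to 9.90, all lie below those of the wild type hearts, 10.55 to 10.97.

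Pkmyt1, whose product is the membrane-bound relative of WEE1, did not pass the test (limma adjusted p = 0.940). It had log2 signals of 5.51, 5.56, 5.17 and 5.61 in miR-100 hearts, against 5.42, 5.25, 5.79 and 5.80 in wild type hearts. The groups overlapped over most of their range. The difference was -0.10 (95% confidence interval -0.47 to 0.27). Wee2, the oocyte relative of Wee1, is named here outside the rule for named genes and had a difference of -0.13 (95% confidence interval -0.58 to 0.33).

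Cdk1, which encodes the kinase that WEE1 restrains, lay at the floor of the array. Its log2 signal was 2.83, 3.0, 2.70 and 2.64 in miR-100 hearts, against 2.88, 2.65, 2.78 and 2.59 in wild type hearts. With a mean at percentile 0.0495, it was among the dimmest rows of the table, and its difference of 0.07 (95% confidence interval -0.25 to 0.38) was measured at that floor. Ccnb1 encodes the cyclin B partner of CDK1 and was not analysed here, for want of a row with its symbol. The related cyclin gene Ccnb2, also named outside the rule, had 5.54 ± 0.32 in miR-100 hearts and 5.69 ± 0.21 in wild type hearts (SD, n = 4 each), and the groups overlapped.

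Among the phosphatases that undo the action of WEE1, Cdc25a showed the next largest difference after Wee1, and it had the same sign. Cdc25a encodes the family member that also acts at entry into DNA replication. Its log2 signal was 5.98, 5.94, 4.85 and 5.44 in miR-100 hearts, against 6.55, 5.75, 5.58 and 6.33 in wild type hearts. The groups overlapped, with the lowest value in miR-100 replicate 3 and the highest in wild type replicate 1. The difference was -0.50 (95% confidence interval -1.08 to 0.08), and it became -0.27 once miR-100 replicate 3 was left out and -0.66 once wild type replicate 3 was.

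Cdc25b, a phosphatase gene linked to the start of mitosis, had nearly equal means and an unequal spread. The arrays gave 5.46, 5.16, 6.18 and 4.80 in miR-100 hearts, against 5.38, 5.35, 5.27 and 5.61 in wild type hearts. The miR-100 values surrounded the wild type values on both sides, with an SD 4.01 times as large. The difference was -0.003 (95% confidence interval -0.52 to 0.52). Without miR-100 replicate 3 it was -0.26, and without miR-100 replicate 4 it was 0.20.

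Cdc25c, the remaining phosphatase gene of the family, was also near the array's floor, at percentile 0.378. Its values ran from 2.69 to 3.20 in miR-100 hearts and from 2.75 to 3.16 in wild type hearts. Both means were 2.94, with a 95% confidence interval of the difference of -0.35 to 0.35.

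Chek1, the gene of the checkpoint kinase CHK1, overlapped between the groups. It had log2 signals of 7.30, 7.04, 7.48 and 7.01 in miR-100 hearts, against 7.57, 7.70, 7.11 and 7.07 in wild type hearts. In wild type hearts replicates 1 and 2 lay above replicates 3 and 4. The difference was -0.16 (95% confidence interval -0.55 to 0.24).

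Plk1, the gene of polo-like kinase 1, is the member that has been reported as a target of the miR-99/100 family. Its log2 signal was 4.78, 4.29, 4.02 and 4.57 in miR-100 hearts, against 4.96, 5.02, 3.81 and 4.03 in wild type hearts. The miR-100 values all fell inside the range of the wild type values, where replicates 1 and 2 were high and replicates 3 and 4 low. The difference was -0.04 (95% confidence interval -0.62 to 0.54), and leaving out wild type replicate 3 gave -0.26 while leaving out wild type replicate 2 gave 0.15. The interval leaves room for a rise or a fall, and the row was dim, at percentile 31.0.

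**Figure D2:**
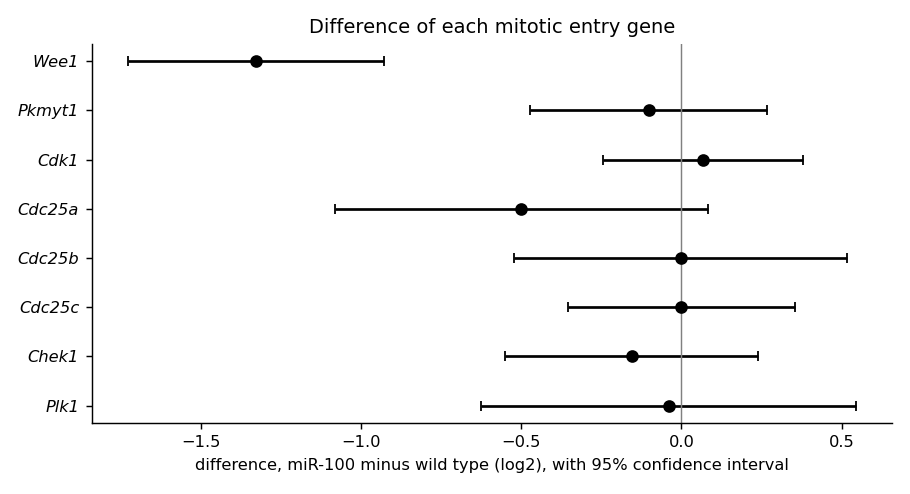
Difference in log2 signal, miR-100 minus wild type, for each measured gene, with points for the estimate and bars for the 95% confidence interval of the limma fit (4 arrays per group). Wee1 lies at -1.33 with an interval from -1.73 to -0.93, and the intervals of the other 7 genes include 0.

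The neighbouring parts of the cell cycle were read from 6 lists with 101 measured genes in all. Of these, 0 passed over all rows (limma), while 9 had an unadjusted p under 0.05, with 6 higher and 3 lower in miR-100 hearts. This was 8.91% of the list genes, beside 7.73% of all rows. The median difference of the 101 genes was -0.01, against -0.015 over all rows.

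Of 10 mitotic cyclins and CDK partners, a list that also held Wee2, 9 had differences below 0, and the median was -0.15. Over all rows, 11778 of 22206 had differences below 0. Cks2, a small subunit that binds CDKs, had a difference of -0.55 (95% confidence interval -0.96 to -0.15, limma adjusted p = 0.426). The S and G2 phase cyclin gene Ccna2 had one of -0.42 (95% confidence interval -0.77 to -0.06, limma adjusted p = 0.542). Both rows were dim, at percentiles 26.3 and 28.5 of all row means.

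The list of 15 other regulators of mitotic entry had a median of -0.01, with 7 differences above 0 and 8 below. Plk2, a stress-responsive relative of Plk1, had 8.98 ± 0.23 in miR-100 hearts and 8.33 ± 0.61 in wild type hearts (SD, n = 4 each). The difference was 0.65 with a limma adjusted p of 0.542. Mastl, whose kinase holds the phosphatase PP2A off during mitosis, had a difference of -0.48 (limma adjusted p = 0.683).

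In the list of the DNA damage and replication checkpoint, 7 of 13 genes had differences above 0 and the median was 0.03. Rad17, which loads the sensor clamp at damaged DNA, had 8.35 ± 0.17 in miR-100 hearts and 7.76 ± 0.23 in wild type hearts (SD, n = 4 each), without overlap (difference 0.59, limma adjusted p = 0.278). Chek2, the gene of the other checkpoint kinase, had a difference of 0.35 (limma adjusted p = 0.693).

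Among 16 genes for the turnover of WEE1 and for the docking of CDC25 on 14-3-3 proteins, differences ran from -0.19 to 0.30 and none had an unadjusted p under 0.05 (0 higher and 0 lower in limma). Rbx1, the gene of a ubiquitin ligase subunit, and Cdc34, that of a ubiquitin-conjugating enzyme, had differences of 0.30 and 0.27 (limma adjusted p = 0.726 and 0.796).

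Mitosis and proliferation genes were mostly dim, with 5 of 23 rows above the middle of the array's row means. Their median difference was -0.08, with 10 above 0 and 12 below. Mki67, the gene of the proliferation antigen Ki-67, had 5.79, 5.89, 5.61 and 6.05 in miR-100 hearts, against 6.58, 5.92, 6.21 and 5.84 in wild type hearts. The topoisomerase gene Top2a had 5.61, 5.40, 5.06 and 5.29 in miR-100 hearts, against 5.89, 5.64, 5.68 and 5.30 in wild type hearts. The groups overlapped for both genes, with differences of -0.30 and -0.29 (limma adjusted p = 0.748 and 0.742). Cdc20 and Prc1, which act at anaphase and in the central spindle, had differences of -0.39 and -0.32 (limma adjusted p = 0.595 and 0.650) at percentiles 7.79 and 15.1.

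In the G1 and S phase list of 24 genes, 4 had an unadjusted p under 0.05, all 4 with positive differences, and the median was -0.01. Over all rows, 7.73% had such a p, with 789 higher and 927 lower. Cdkn1a, the gene of the CDK inhibitor p21, had 11.66, 10.82, 11.68 and 9.89 in miR-100 hearts, against 8.53, 7.39, 10.30 and 9.58 in wild type hearts. Its groups overlapped, with a difference of 2.06 and a wide interval (95% confidence interval 0.91 to 3.21, limma adjusted p = 0.234). The D-type cyclin gene Ccnd2 had 12.68 ± 0.33 in miR-100 hearts and 12.00 ± 0.29 in wild type hearts (SD, n = 4 each, limma adjusted p = 0.321). The others were Ccnd3 and Ccne1, with differences of 0.50 and 0.40.

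**Figure D3:**
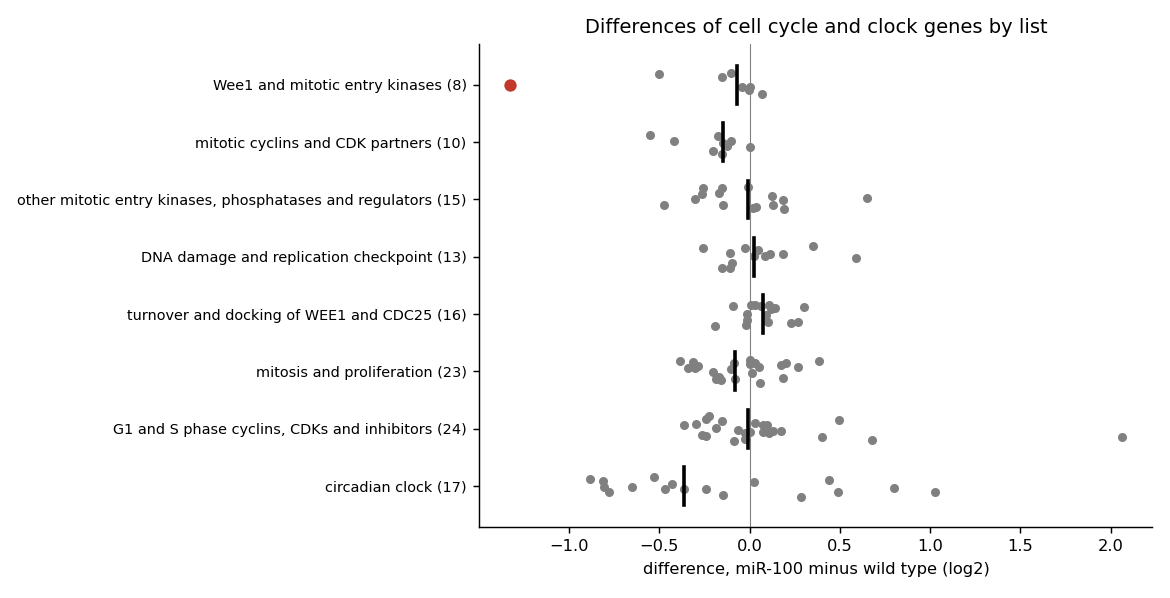
Difference in log2 signal, miR-100 minus wild type, for each gene of 8 lists, with the number of measured genes in brackets, a red point for a gene past an adjusted p of 0.05 over all rows, grey points for the others and a black bar for the list's median. Wee1 at -1.33 is the red point, the clock genes run from -0.89 to 1.03, and the highest point is Cdkn1a at 2.06.

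The genes whose arrays looked most like Wee1 were found by the root mean square difference from Wee1 over the 8 arrays, after each row was centred on its own mean, among 18580 rows with a symbol that were neither predicted loci nor members. The 5 nearest were Armc2 (0.279), Per3 (0.299), Zbtb25 (0.338), Nfkbia (0.339) and Mid1ip1 (0.340). This measure includes the difference between the groups, so all 5 had to be lower in miR-100 hearts. Their differences were -1.37, -0.81, -0.76, -1.15 and -1.01. Armc2, an armadillo repeat gene, had 9.01, 8.10, 8.73 and 9.16 in miR-100 hearts, against 10.26, 10.36, 9.60 and 10.27 in wild type hearts. Like Wee1, it was lowest in miR-100 replicate 2 and in wild type replicate 3, which the choice by likeness favours. Nfkbia, the gene of an NF-kappaB inhibitor, had 9.40, 9.37, 9.59 and 9.49 in miR-100 hearts and 10.20, 10.44, 10.99 and 10.80 in wild type hearts, where replicate 3 was the highest. The other 7 members lay farther from Wee1 by this measure, from 0.642 for Chek1 to 0.815 for Plk1. For the same reason a row with little difference between the groups must lie far from Wee1. Nothing is read from the members' distances. The 3 rows nearest to Cdk1 were Myo1g, Olfr1384 and C2 at 0.0468 to 0.0573, with differences of 0.08, 0.10 and 0.09 between the groups. Cdk1 itself lay at the floor of the array, so nothing is read from these small distances.

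The second nearest gene, Per3, belongs to the circadian clock, as do Per2 (place 7), Ciart (place 10), Per1 (place 22) and Dbp (place 39) among the 18580 rows. PER proteins repress the clock's activators ARNTL and CLOCK, and DBP is a clock output. Per3 had 10.39, 10.21, 10.51 and 10.51 in miR-100 hearts, against 11.26, 11.31, 10.99 and 11.30 in wild type hearts. Its groups did not overlap, and wild type replicate 3 was again the lowest of its group, which the choice by likeness favours. Per2 had 7.12, 7.12, 7.48 and 7.19 in miR-100 hearts and 7.62, 8.24, 8.14 and 8.45 in wild type hearts.

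Within the miR-100 group, Wee1 and Per2 were both highest in replicate 3. Per1 was also highest there, at 8.34, against 7.62 to 8.13 on the other miR-100 arrays. Per3 had its highest miR-100 value, 10.51, in both replicates 3 and 4. These genes were named for their likeness to Wee1, which favours a shared high array. The order differed in wild type hearts, where Wee1 was lowest in replicate 3. In that group Per1 had 8.62, 8.57, 8.82 and 8.97, lowest in replicate 2, and Per2 was lowest in replicate 1. Arntl ran the other way, with 6.37, 6.06, 5.88 and 6.42 in miR-100 hearts, against 5.87, 5.17, 4.92 and 4.67 in wild type hearts. Its lowest miR-100 array was replicate 3. Dbp did not share this order and was also lowest on that array, with 16.35, 16.41, 16.21 and 16.36 in miR-100 hearts, against 17.15, 16.92, 16.69 and 17.18 in wild type hearts. Other clock genes lay far from Wee1 by the measure above, which includes the difference between the groups. Examples are Cry1 at place 5206, Nr1d1 at place 18465 and Arntl at place 18527. Of 17 measured clock genes, 12 had an unadjusted p under 0.05, beside 7.73% of all rows, with 4 higher and 8 lower, and 0 passed over all rows (limma adjusted p = 0.0548 for Per3, 0.106 for Per2, 0.176 for Per1 and Dbp and 0.175 for Arntl). The times at which hearts were collected are not given in the sources used here, and the part of the clock in the Wee1 value was not tested.

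**Figure D4:**
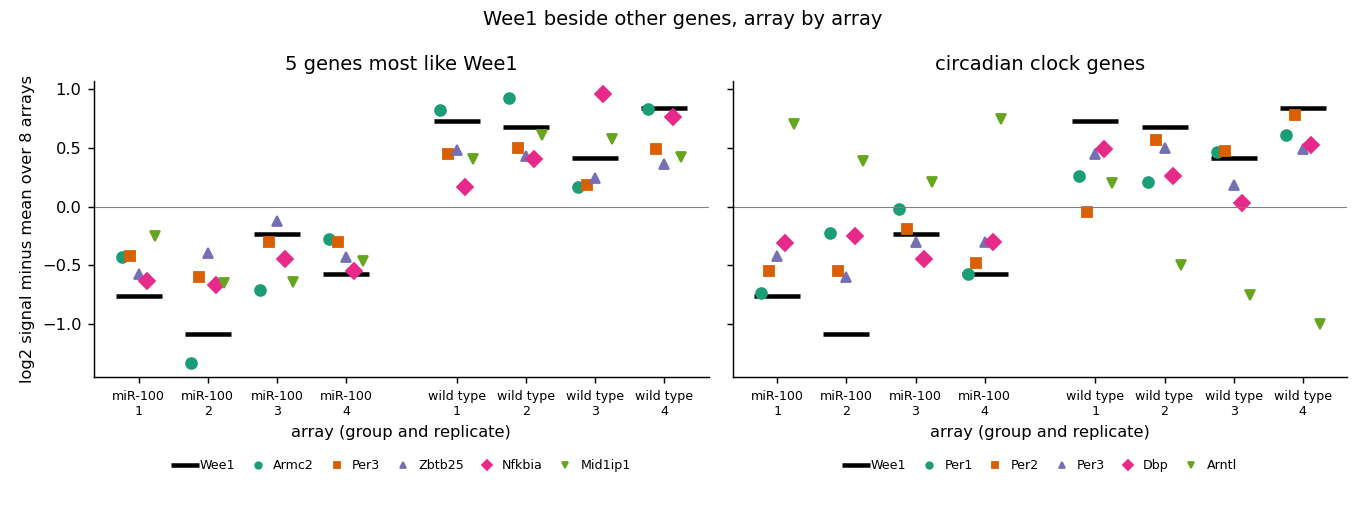
Log2 signal minus the gene's mean over the 8 arrays, for each miR-100 and wild type array, with Wee1 as black bars beside the 5 genes most like it (left) and 5 circadian clock genes (right) as coloured points. Wee1 and the genes on the left lie below 0 on all miR-100 arrays and above 0 on all wild type arrays, and Arntl is reversed except on wild type replicate 1.

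Promoters from 250 bases before to 50 after the gene's start were matched by symbol in the RefSeq table (GRCm38.p6) for Cdk1, Ccnb1, Cdc25a, Cdc25b, Chek1 and Plk1, and for 4 of the 5 genes most like Wee1. Wee1, Pkmyt1, Cdc25c and Armc2 had no entry, nor did Per2 and Bhlhe40 of the clock list. The E-box CACGTG, which reads the same on both strands and is bound by clock activators, occurred in 0 of the 6 member promoters, in Zbtb25 among the 4 genes and in 5 of 15 clock genes, against 8.09% of all 27025 genes in the table. The cell cycle homology motif TTTGAA, searched on both strands, occurred in 2 of the 6 member promoters, those of Cdk1 and Plk1, against 20.2% of all genes. The E-box windows below, each of 30 bases, are shown because these genes lay close to Wee1 across the arrays, and capitals mark the E-box. Per3 and Dbp, also close to Wee1, were searched and had no E-box.
Zbtb25: cggcagtccggtCACGTGggccgggcgcgg
Per1: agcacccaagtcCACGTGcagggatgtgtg
Ciart: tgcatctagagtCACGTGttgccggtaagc
The Zbtb25 window is chr12:76369567-76369596 on the minus strand, the Per1 window chr11:69098771-69098800 on the plus strand, and the Ciart window chr3:95882327-95882356 on the minus strand. Counted from the gene's start, the E-boxes shown begin at -24 for Zbtb25, which is -120 from another start of that gene, at -166 for Per1 and at -116 for Ciart, whose promoter holds others at -58 and -44. Such a match describes these letters and does not show binding.

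Cell type markers were set beside Wee1 by the log2 of their summed signal. For 9 markers of ventricular muscle the sum was 22.01 to 22.05 in miR-100 hearts and 22.04 to 22.11 in wild type hearts. For 7 endothelial markers it was 15.10 to 15.39 in miR-100 hearts and 15.19 to 15.35 in wild type hearts, and for 7 fibroblast markers 17.84 to 18.04 in miR-100 hearts and 17.78 to 17.97 in wild type hearts. For 7 macrophage markers it was 11.83 to 12.11 in miR-100 hearts and 11.63 to 12.33 in wild type hearts. The 8 smooth muscle and pericyte markers summed to 15.16 to 15.82 in miR-100 hearts and 14.88 to 15.41 in wild type hearts, the 7 lymphocyte markers to 7.35 to 7.53 in miR-100 hearts and 7.37 to 7.49 in wild type hearts, and the 1 measured red blood cell marker, Alas2, had 5.07 to 5.84 in miR-100 hearts and 5.04 to 6.19 in wild type hearts. All of these summed ranges overlapped. Such a sum is set mainly by its brightest rows, so its overlap does not speak for dimmer markers. The brightest ventricular muscle rows lay near 19.93, the highest value on any array. Pln, for example, had means of 19.64 in miR-100 hearts and 19.63 in wild type hearts. A difference may not show so near the top, so the overlap of that sum says little about muscle content. In the fibroblast list Dcn alone had 17.87 ± 0.08 in miR-100 hearts and 17.75 ± 0.10 in wild type hearts (SD, n = 4 each). The differences of the 7 fibroblast markers ran from -0.37 to 0.26. Single markers of smooth muscle and pericytes and of ventricular muscle differed, though none passed over all rows. Acta2, the smooth muscle actin gene, had 13.74, 14.01, 14.66 and 12.94 in miR-100 hearts, against 12.86, 12.71, 12.72 and 12.61 in wild type hearts, without overlap (difference 1.11, limma adjusted p = 0.203). Kcnj8, a potassium channel gene of pericytes, had 9.12 ± 0.10 in miR-100 hearts and 9.43 ± 0.08 in wild type hearts (SD, n = 4 each), without overlap (difference -0.31, limma adjusted p = 0.609). The other 6 of this list overlapped. Of the 9 ventricular muscle markers, 2 did not overlap, beside 4.54% of all rows. These were Mybpc3 (difference 0.40, limma adjusted p = 0.520) and Myl3 (-0.275, limma adjusted p = 0.689). These markers' part in the Wee1 value was not tested.

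The 5 atrial markers were the list whose sums did not overlap, at 18.07 to 18.76 in miR-100 hearts and 17.04 to 17.54 in wild type hearts. The natriuretic peptide gene Nppa, which the ventricle also expresses, made up most of this sum, with 18.36 ± 0.33 in miR-100 hearts and 17.32 ± 0.26 in wild type hearts (SD, n = 4 each). The atrial myosin light chain gene Myl7 was dim and had 3.83 ± 0.48 in miR-100 hearts and 4.23 ± 0.12 in wild type hearts (SD, n = 4 each). The part of this list in the Wee1 value was not tested.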

How the data were processed

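Left ventricular RNA was labelled with the Affymetrix WT Plus kit, per the labels' protocols, and the deposited table gives 1 log2 signal for each transcript cluster. The submitters' processing notes name Transcriptome Analysis Console 4.0 for this step. Summarization, normalization and genome build are not given in the sources used here. Gene names came from the platform annotation, with 19572 of 22206 rows having 1 symbol and 2634 none; all 19572 Entrez numbers matched RefSeq (GRCm38.p6).

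The fit used limma 3.58.1 (lmFit and eBayes, R 4.3.3) on every row as deposited, without filter or covariates, with Benjamini-Hochberg adjustment over all rows at 0.05. The fit was tested on simulated data. Where a gene had several rows, the brightest stood for it in the lists. Of the list genes, 17 had no row. The rule named the members, from each list the 2 genes with the lowest unadjusted p, set clock and mitosis genes, and the rows most like Wee1 and Cdk1. Members, lists and rules were chosen with earlier results of these data known. Alternatives were other scalings, moderation, weights, filters, a replicate block and leaving out each array.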

Additional observations from a re-analysis of the deposited data

Results flagged for a closer look

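In 32 groups of 4 arrays, covering the 8 members and the 8 rows most like Wee1 or Cdk1, an array far from its group by Dixon's test at the 95% critical value was found in 2. Chance alone passes this value in about 5% of groups. Both were wild type replicate 3. Armc2 had 9.60 there, against 10.26 to 10.36 on the other wild type arrays, and Per3 had 10.99 there, against 11.26 to 11.31. Wee1 was also lowest among wild type hearts on that array, at 10.55, but its distance from the others stayed under the critical value. Armc2 and Per3 were included because their arrays looked most like Wee1. A low array shared with Wee1 was therefore partly set by that choice. No member had such an array.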

How the results depend on the processing

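The Wee1 difference lay between -1.35 and -1.32 in the 8 alternative fits that kept all arrays and passed in all 8, with limma adjusted p from 0.00140 to 0.0470. The highest came from the replicate block, which called 21 rows. Same-numbered arrays deviated from their group means with correlations of -0.06 to 0.07, so the numbers were not taken as pairs, and an array correlated best with its own number only for numbers 1 and 3. Leaving out single arrays gave -1.47 to -1.19, and Wee1 passed in 5 of 8 fits; the count of members that passed was 0 to 1 there. The number of rows past the threshold was 58 with an intensity trend and robust moderation, against 31, and 11 to 27 without single arrays. It was 12, 11 and 11 without miR-100 replicate 1, 3 or 4 and 15 without wild type replicate 2 or 3. Genes of the cell cycle and clock lists past the threshold, 0 in the reported fit, were 2 with trend and robust moderation (Per3 and Dbp), and 1 each with rows above the 25th percentile, rows above the 50th percentile or rows with 1 symbol (Per3 in each). They were 0 to 2 without single arrays, with Per2 and Arntl passing without wild type replicate 1. The cause of these changes was not tested. The other members passed in 0 of the alternatives, and the replicate block changed no call of a member. The filter at the 25th percentile left out Cdk1 and Cdc25c, and the filter at the 50th percentile also Pkmyt1, Cdc25b and Plk1. Dim rows lie close to background, and 4 arrays per group limit every value.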

Other observations

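Replicate 3 of the miR-100 group was the array farthest from its group in 7 of the 8 measured members, by the larger gap at either end of the 4 sorted values. For Wee1 and Cdc25c the gaps at both ends were nearly equal, so there the margin was narrow. Over all rows of the table miR-100 replicate 3 was the farthest of its group in 25.9%. It gave the highest miR-100 value of Wee1, Cdc25b, Chek1 and Cdc25c and the lowest of Pkmyt1, Cdc25a and Plk1. On the first principal component it lay at 13.5, between the other miR-100 arrays. Without it the Wee1 difference was -1.47 (limma adjusted p = 0.0149).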
